A study of Lemna aequinoctialis with 6 samples.

Results

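The genes described here are the cell cycle, DNA replication and mitotic genes on the authors' list of transcripts that differed between IPA-treated and control duckweed. They were found by the wording of the list's gene descriptions (cyclin, cell division, cell cycle, replication, DNA polymerase, kinesin, mitotic, DNA topoisomerase, proliferating and similar terms), with retroelement and FtsH descriptions left out. The rule found 74 transcripts in 28 Trinity genes, of 5093 listed transcripts and of 81787 transcripts in all. Trinity is an assembler that builds transcripts from reads without a genome, and a Trinity gene is a group of assembled transcripts taken to be isoforms of 1 gene. Lemna aequinoctialis is a small floating duckweed that multiplies mainly by budding new fronds. The IPA group held 3 libraries of plants treated with indole-3-propionic acid, an indole with a propionic acid side chain, related to the auxin indole-3-acetic acid, and the control group held 3 libraries of control plants. RNA of both groups came from ground, lyophilised plants. The sources used here give no concentration, duration, plant age or vehicle, and do not say whether each library came from its own culture, so the spread between libraries may be technical.

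Membership required a place on the authors' list, and that list was made from the same 6 libraries. The values that chose the members were therefore the authors' fold change and FDR of IPA against control: the highest FDR on the list was 0.05, and the smallest log2 change, up or down, was 1.0. The direction and size of the members' differences are given below as a description, without a test, and the values in the single libraries are what the list does not show.

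In plants, D-type cyclins bind cyclin-dependent kinases in the gap phase before DNA synthesis, and the kinase phosphorylates the retinoblastoma-related protein, which then releases E2F transcription factors. CDK inhibitors of the KRP family bind these kinases and hold them back. Before replication, CDC6 and partner proteins load the MCM helicase on replication origins; CDC45 joins the helicase when it fires, and PCNA is the sliding clamp that tethers DNA polymerases to the template. In mitosis, kinesins move along microtubules, the spindle checkpoint delays chromosome separation, and the anaphase-promoting complex marks mitotic cyclins for breakdown.

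Of the 74 transcripts, 44 in 15 Trinity genes were listed as higher in IPA and 30 in 13 Trinity genes as lower, and no gene had members in both directions. By role, all 28 transcripts of origin licensing and the replisome, in 9 Trinity genes, were listed as higher, as were 11 of 12 D-type cyclin transcripts. All 7 transcripts of the spindle checkpoint, the DNA damage checkpoint and the anaphase-promoting complex, both B-type CDK transcripts, 3 of 4 CDK inhibitor transcripts, 6 of 8 kinesin transcripts and 9 of 10 transcripts of other DNA polymerases and a topoisomerase were listed as lower. These roles were assigned after the descriptions had been seen. They replaced roles fixed earlier, in which MCM, PCNA, all DNA polymerases and the topoisomerase formed a single replication role. That role had members in both directions, and CDC6 and CDC45 were outside it.

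All 74 members passed the filter on low reads. Values are deposited normalised read counts, and differences are on the log2(value + 0.5) scale, IPA minus control, which understates the change of low transcripts. The median log2 difference of the 44 higher members was 1.18 (0.58 to 1.68) and that of the 30 lower members -0.90 (-1.36 to -0.53), while the median of all 78722 transcripts tested was 0.02 (quartiles -0.27 and 0.32). limma on this scale, with Benjamini-Hochberg adjustment over all transcripts at 0.05, called 22 members higher and 7 lower and did not call 45; among all transcripts it called 4.49% higher and 3.87% lower. In 30 members every IPA library was above every control library, against 16.6% of all transcripts, and in 27 every IPA library was below, against 16.3%; the groups overlapped in 17. Nothing is read from these shares, since the members were picked for the same contrast. DESeq2 on the recovered reads called 42 members higher and 25 lower, and limma after scaling by library totals called 38 and 5. The number of calls also rested on single libraries: it was 10 higher and 1 lower without IPA 1, 4 and 0 without IPA 2, 22 and 1 without IPA 3, 12 and 7 without control 1, 2 and 0 without control 2, and 37 and 20 without control 3. At an unadjusted p under 0.05, limma counted 40 higher and 23 lower without IPA 2, and 43 and 26 without control 2. With all libraries kept, 20892 of the 78722 transcripts passed that level. Nothing is read from these counts either, for the same reason.

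Recovered reads totalled 30149649 to 45233584 in the IPA libraries and 38556985 to 41370062 in the controls. A read was worth 0.0205 to 0.0318 normalised reads, and a count of 0 allowed up to 3 reads, or 0.0614 to 0.0954. These limits cover counting error only. The members had 59 to 14651 reads over the 6 libraries (median 715), and 7 had a library with fewer than 3 reads. Open reading frames that lie in ribosomal DNA, in 7 listed transcripts, took 4.94% to 6.98% of the reads in IPA and 11.6% to 28.7% in control. With the libraries rescaled without those frames limma again called 22 members higher and 7 lower. In these bulk libraries fewer cells of a type and less RNA per cell cannot be told apart. Transcript lengths were not given, so levels are compared between libraries and not between genes.

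**Figure D1:**
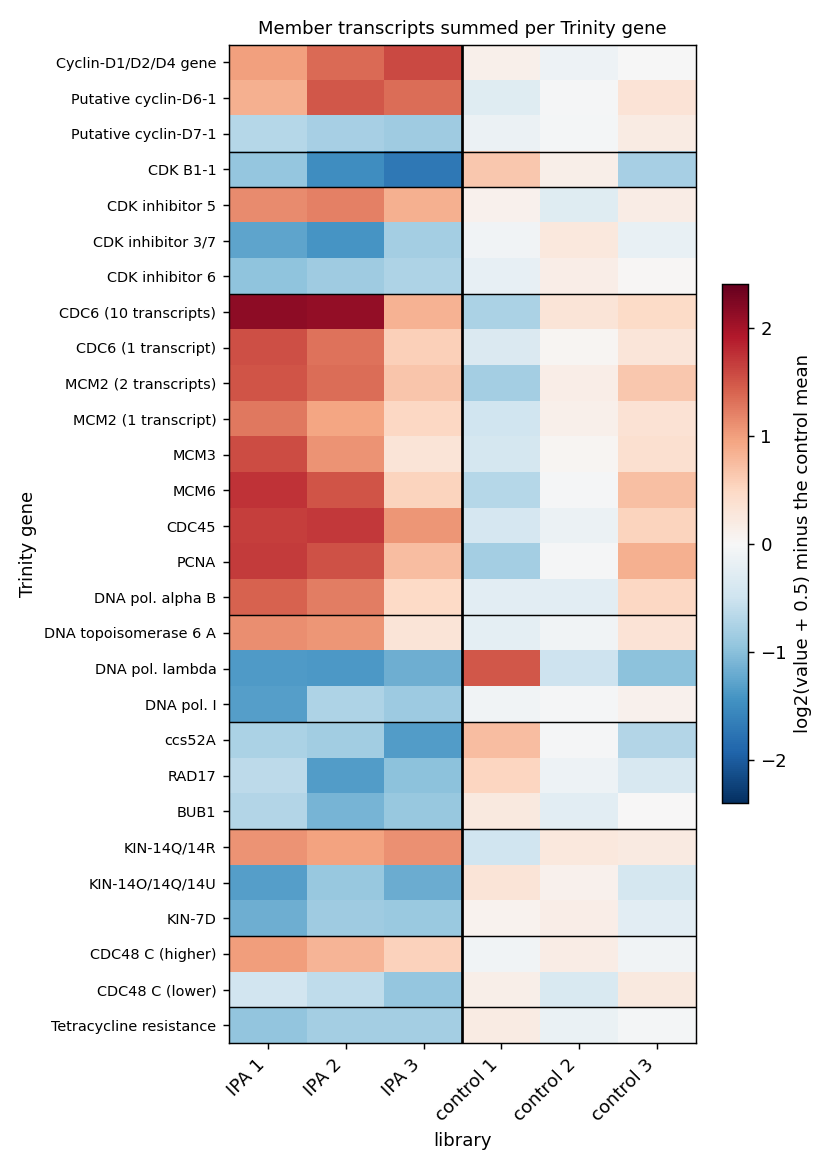
Log2 difference of each of the 28 Trinity genes, summed over its listed transcripts, from the control mean, in IPA 1 to 3 (left) and control 1 to 3 (right), with genes grouped by role. The 9 licensing and replisome genes are highest in IPA 1 or IPA 2 and lowest in control 1, and the checkpoint and anaphase-promoting complex genes are lower in all 3 IPA libraries than in any control.

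Among the regulators that open the cycle, 8 of the 12 D-type cyclin transcripts came from 1 Trinity gene, TRINITY_DN3388_c0_g1. It held these 8 listed transcripts of 9 in all, described as Cyclin-D1-1 (4 transcripts), D1-2 (1), D2-1 (2) and D4-1 (1). Since isoforms of 1 gene share sequence, and the sources used here do not say how reads that fit several isoforms were assigned, these are 4 names for 1 gene and not 4 cyclins. Its 8 listed transcripts summed to 48.7, 64.0 and 74.6 normalised reads in IPA 1, 2 and 3, against 26.8, 22.6 and 24.2 in control 1, 2 and 3. Their means were 62.4 ± 13 in IPA and 24.5 ± 2.12 in control (SD, n = 3 each). Every IPA library was above every control library, and the 3 controls lay close together. The unlisted isoform was higher in IPA as well, so the whole gene averaged 65.7 ± 13.7 in IPA and 26.3 ± 2.04 in control, a 2.5-fold ratio of means and a log2 difference of 1.29 (SE 0.18).

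The 4 Cyclin-D1-1 transcripts behaved alike. Isoform i28 had 7.53, 7.88 and 10.2 normalised reads in IPA 1, 2 and 3, against 3.02, 3.34 and 3.52 in control 1, 2 and 3. Isoform i21 had 5.89, 9.15 and 10.5 in IPA, against 3.65, 3.12 and 4.07 in control. In both isoforms IPA 1 was the lowest and IPA 3 the highest of the IPA libraries, and the groups did not overlap. Isoform i18 had 3.88, 5.02 and 5.54 in IPA, against 2.5, 1.59 and 2.33 in control. Isoform i19 had 3.48, 4.77 and 4.84 in IPA, against 2.23, 1.43 and 1.74 in control. Their log2 differences were 1.24 ± 0.19 (i28), 1.10 ± 0.23 (i21), 1.01 ± 0.22 (i18) and 1.08 ± 0.22 (i19), each with its SE. The Cyclin-D1-2 transcript i23 had 10.1, 15.2 and 17.2 in IPA, against 6.07, 5.22 and 4.21 in control. IPA 1 was the lowest IPA library in all 8 listed isoforms of the gene, and IPA 3 the highest in 7. This is the common order of the list, since IPA 1 was the lowest IPA library in 68.7% and IPA 3 the highest in 61.3% of all 2586 transcripts listed as higher, and the 8 isoforms are 1 gene.

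Putative cyclin-D6-1, whose Arabidopsis counterpart acts in formative divisions of the root, had 3 listed isoforms of 7 in TRINITY_DN17047_c0_g1. They summed to 1.01, 1.86 and 1.63 normalised reads in IPA, against 0.181, 0.318 and 0.549 in control. The groups did not overlap, but the levels were low and 2 of its isoforms had no read in control 1. The remaining D-type cyclin went the other way. The listed isoform described as cyclin-D7-1, which in Arabidopsis acts in the division that forms guard cells, had 0.172, 0.123 and 0.0988 in IPA, against 0.483, 0.541 and 0.732 in control. It carried 0.612% of its gene's signal in IPA and 1.92% in control, and the whole gene, of 33 transcripts, averaged 21.4 ± 1.03 in IPA and 30.5 ± 2.04 in control (SD, n = 3 each).

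The kinases were represented by cyclin-dependent kinase B1-1, a plant CDK of the passage into mitosis, with 2 listed isoforms in TRINITY_DN30762_c0_g1. Isoform i4 had 0.230, 0.0614 and 0 normalised reads in IPA, against 1.63, 0.795 and 0.274 in control. Behind these values stood 8, 3 and 0 reads in IPA, against 54, 25 and 12 in control. Isoform i3 had 0.230, 0.0819 and 0.0494 in IPA, against 0.724, 0.700 and 0.274 in control. The groups did not overlap in either isoform, control 3 was the lowest control in both, and the IPA values of both rested on 8 reads or fewer in each library.

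Of the CDK inhibitors, Cyclin-dependent kinase inhibitor 5 was the only listed transcript that was higher in IPA. Its isoform TRINITY_DN1156_c0_g1_i10 had 8.65, 9.21 and 7.09 normalised reads in IPA, against 3.98, 2.93 and 4.25 in control, or 8.32 ± 1.10 and 3.72 ± 0.702 (SD, n = 3 each), a log2 difference of 1.07 (SE 0.20). The groups did not overlap, and the lowest IPA library, IPA 3, was above the highest control. This isoform was 13.3% of its gene's signal in IPA and 9.53% in control. The whole gene of 4 isoforms had 59.3, 65.9 and 61.7 in IPA, against 36.6, 40.9 and 39.6 in control, a 1.6-fold ratio of means, and its 3 unlisted isoforms were each higher in IPA. A D-type cyclin gene and a CDK inhibitor gene were thus higher in the same IPA libraries.

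The other 3 inhibitor transcripts were low and were listed as lower. Inhibitor 7 had 0.230, 0.368 and 0.593 normalised reads in IPA, against 1.39, 1.59 and 0.961 in control. Inhibitor 6 had 0.287, 0.348 and 0.420 in IPA, against 0.845, 1.21 and 1.08 in control. Inhibitor 3, assembled into the same Trinity gene as inhibitor 7, had 0.287, 0.0409 and 0.297 in IPA, against 0.422, 0.827 and 0.686 in control. None of these 3 had overlapping groups, where 16.3% of all transcripts had every IPA library below every control. limma called 2 of them lower and did not call 1, against 3.87% called lower among all transcripts. Nothing is read from these counts, since the members were picked for the same contrast. At gene level the differences were smaller: the gene of inhibitors 3 and 7 averaged 7.73 ± 0.634 in IPA and 11.8 ± 1.85 in control, and that of inhibitor 6 averaged 2.00 ± 0.307 in IPA and 3.43 ± 0.446 in control (SD, n = 3 each).

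**Figure D2:**
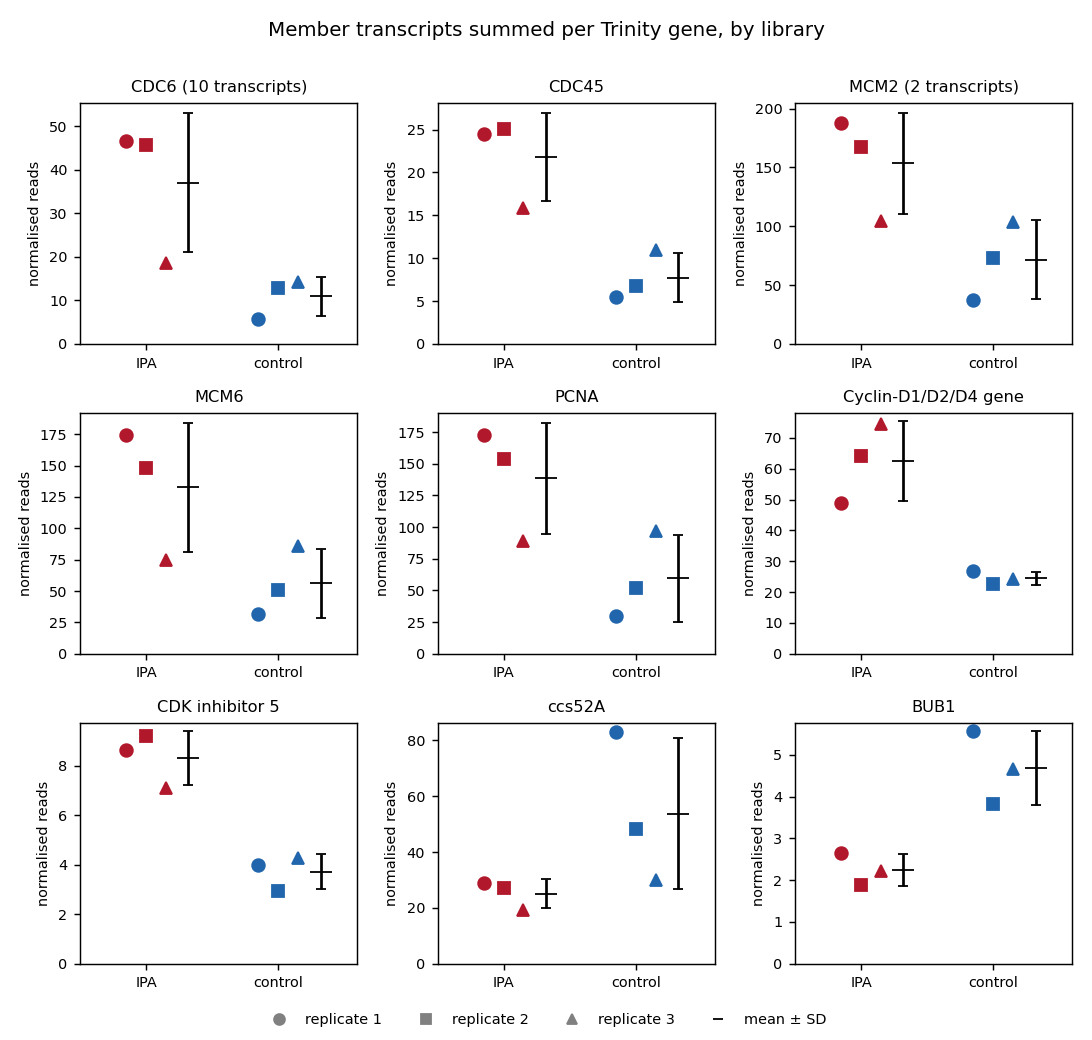
Normalised reads (vertical axes, each from 0) of the listed transcripts of 9 Trinity genes, with IPA left of control, a symbol for each replicate and the group mean ± SD beside the points. The cyclin D gene shows 3 controls close together between 22.6 and 26.8, whereas the MCM2, MCM6 and PCNA controls spread between 29.9 and 104 and the IPA 3 library comes down to about the level of control 3.

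Of the 28 licensing and replisome transcripts, all listed as higher, limma called 9 higher and did not call 19. Among all transcripts it called 4.49% higher. The groups did not overlap in 15 and overlapped in 13, where 16.6% of all transcripts had every IPA library above every control. The 28 are isoforms of 9 genes picked for the same contrast, so nothing is read from these shares. The 19 not called included the MCM transcripts. CDC6 had the highest log2 difference of the 28 gene sums. The Trinity gene TRINITY_DN8399_c0_g1, described as cell division control protein 6 homolog or homolog B, held 10 transcripts, all of them listed. Summed, CDC6 had 46.7, 45.7 and 18.6 normalised reads in IPA, against 5.79, 12.8 and 14.1 in control, or 37.0 ± 15.9 and 10.9 ± 4.49 (SD, n = 3 each). IPA 3 was below the other IPA libraries but above control 3, so that the groups did not overlap in the sum, and the log2 difference was 1.69 (SE 0.40). Its single isoforms gave log2 differences of 0.97 to 1.68. Isoform i1 gave the highest, with 6.61, 4.81 and 3.24 in IPA, against 1.09, 0.763 and 1.65 in control. A second CDC6 gene, TRINITY_DN14615_c0_g1, was low, with 1.35, 1.06 and 0.445 in IPA, against 0, 0.159 and 0.274 in control.

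The MCM subunits form the ring of the replicative helicase. MCM2 in TRINITY_DN9294_c0_g1, with 2 isoforms, had 188, 167 and 105 normalised reads in IPA, against 37.4, 73.4 and 104 in control. Means were 153 ± 43.2 in IPA and 71.6 ± 33.3 in control, with a log2 difference of 1.17 (SE 0.35). IPA 3 and control 3 were almost at the same level, and the groups were separated by less than either group's SD. MCM6, with 3 isoforms in TRINITY_DN1821_c0_g1, had 174, 148 and 75.1 in IPA, against 31.8, 50.6 and 86.0 in control. Here IPA 3 was below control 3, so the groups overlapped, although the log2 difference of 1.26 (SE 0.38) was larger than that of MCM2. A low second MCM2 transcript, TRINITY_DN122371_c0_g1_i1, had 3.39, 2.64 and 1.8 in IPA, against 0.664, 1.27 and 1.58 in control. MCM3 had 6.03, 4.16 and 2.25 in IPA, against 1.15, 1.78 and 2.38 in control, again with IPA 3 below control 3.

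CDC45, the factor that completes the active helicase, was represented by 3 isoforms in TRINITY_DN9399_c0_g1. They summed to 24.5, 25.1 and 15.9 normalised reads in IPA, against 5.49, 6.71 and 11 in control. Means were 21.8 ± 5.15 in IPA and 7.72 ± 2.87 in control (SD, n = 3 each), with a log2 difference of 1.47 (SE 0.28). All 3 IPA libraries were above all controls, and the gap between IPA 3 and control 3 was wider than for MCM2.

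The sliding clamp PCNA had 6 listed isoforms of 7 in TRINITY_DN6265_c0_g1. They summed to 173, 154 and 89.3 normalised reads in IPA, against 29.9, 52.0 and 96.9 in control, or 139 ± 43.7 and 59.6 ± 34.2 (SD, n = 3 each). IPA 3 was below control 3, and the whole gene gave a log2 difference of 1.31 (SE 0.39). The B subunit of DNA polymerase alpha, part of the enzyme that starts new strands, had 1 listed isoform of 7, with 3.22, 2.74 and 1.43 in IPA, against 0.664, 0.668 and 1.46 in control. Its whole gene averaged 20.7 ± 8.57 in IPA and 10.5 ± 4.62 in control.

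The 9 licensing and replisome genes shared an order of libraries that the rule did not use. In the gene sums, control 1 was below control 2 and control 2 below control 3 in 9 of 9 genes, IPA 3 was the lowest IPA library in 9 of 9, and IPA 1 was the highest of the IPA libraries in 8 of 9. At the level of the 28 transcripts IPA 3 was the lowest IPA library in 28, or 100%, and the controls lay in the order 1, 2, 3 in 23, or 82.1%. Among all 2586 transcripts on the list that were higher in IPA, the same shares were 21.8% and 26.0%. The 28 transcripts are isoforms of 9 genes and not 28 separate cases. The set was drawn up after the descriptions had been seen, and it leaves out the other DNA polymerases and the topoisomerase of the replication role fixed earlier. No share over gene sums of the whole list was computed to set beside the 9 of 9. Median gene differences from the control mean, on the log2(value + 0.5) scale, were 1.56, 1.34 and 0.57 in IPA 1, 2 and 3, against -0.48, 0.04 and 0.50 in control 1, 2 and 3. The last values of each group, 0.57 for IPA 3 and 0.50 for control 3, were close to each other. The cyclin D gene, with IPA 1 lowest, had the order within IPA that most of the listed higher transcripts had. On the first principal component of all transcripts (56.5% of the variance) the scores were 60.1, 75 and 86.6 in IPA 1, 2 and 3, against -129, -64.2 and -28.3 in control 1, 2 and 3. IPA 3, the IPA library lowest in licensing genes, was thus the one farthest from the controls on that component, and control 3, the control with the highest licensing values, was the control nearest to IPA.

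**Figure D3:**
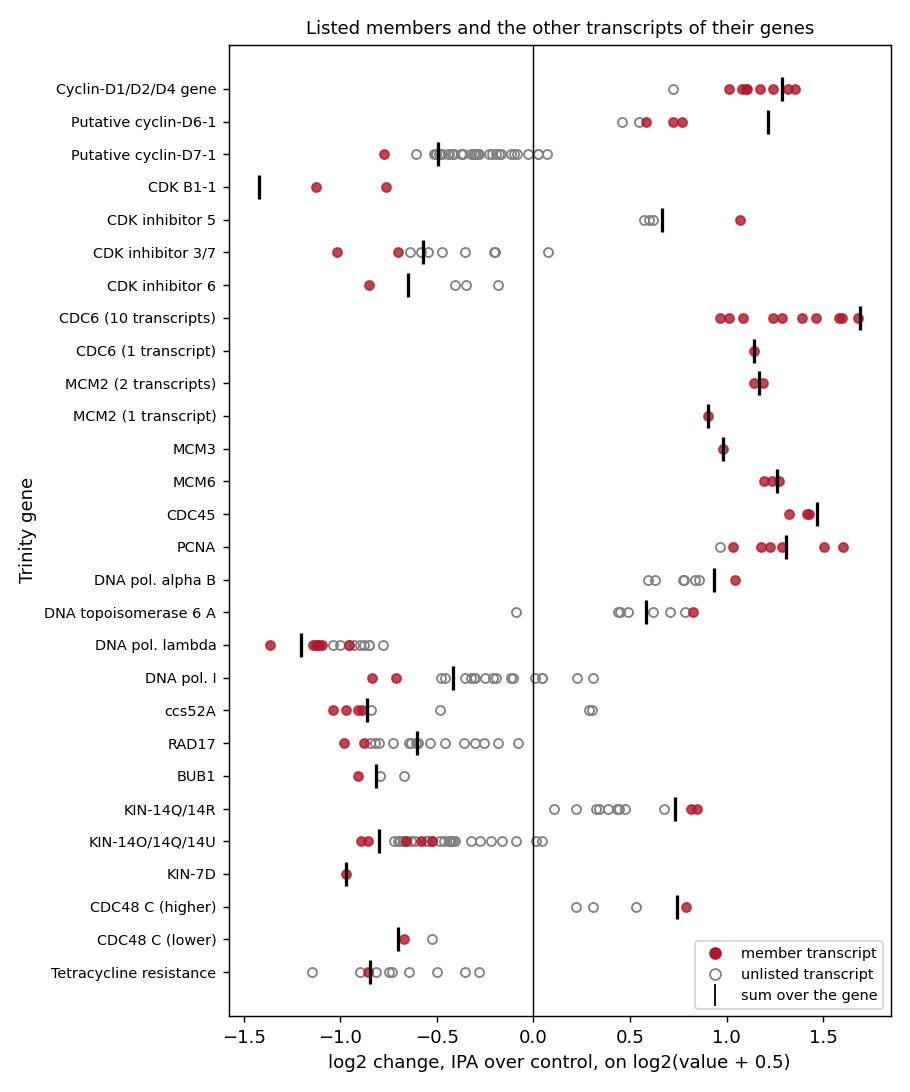
Log2 difference (IPA minus control, log2(value + 0.5) scale) of every transcript that passed the filter in the 28 Trinity genes, with member transcripts as filled points, unlisted transcripts as open points and the gene sum as a vertical bar. Of the unlisted isoforms, 31 of 32 in the genes with higher members and 110 of 123 in the genes with lower members lie on the same side of 0 as the listed ones.

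The other DNA polymerases were listed as lower in IPA. DNA polymerase lambda, a repair polymerase, had 7 listed isoforms of 16 in TRINITY_DN854_c3_g1, which summed to 10.2, 10.1 and 11.6 normalised reads in IPA, against 75.8, 18.9 and 13.2 in control. Control 1 stood far above the other controls, and control 3 was little above IPA 3. The means of 10.6 ± 0.849 in IPA and 36.0 ± 34.6 in control (SD, n = 3 each) therefore differed by less than the control SD. DNA polymerase I, a name given from bacterial proteins, had 2 low isoforms of 18, which summed to 0.661, 1.25 and 1.09 in IPA, against 2.26, 2.35 and 2.65 in control. DNA topoisomerase 6 subunit A, needed in Arabidopsis for repeated genome doubling without division, was higher in IPA, with 4.40, 4.22 and 2.32 in IPA, against 1.42, 1.65 and 2.33 in control. Its IPA 3 value was just below its control 3 value, so it had the library order of the replisome genes.

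Of the 7 checkpoint and anaphase-promoting complex transcripts, all listed as lower, limma called 2 lower and did not call 5. Among all transcripts it called 3.87% lower. The groups did not overlap in any of the 7, where 16.3% of all transcripts had every IPA library below every control. Of the 3 gene sums, limma called that of BUB1 and not those of ccs52A and RAD17. The B-type cell cycle switch protein ccs52A, which in Medicago activates the anaphase-promoting complex and promotes genome doubling, had 4 listed isoforms of 8 in TRINITY_DN4228_c0_g1. They summed to 28.8, 27.3 and 19.1 normalised reads in IPA, against 83.1, 48.1 and 29.9 in control, or 25.1 ± 5.21 and 53.7 ± 27.1 (SD, n = 3 each). Control 1 was the highest, and control 3 was only slightly above IPA 1. The checkpoint protein RAD17, a clamp loader at damaged DNA, had 2 listed isoforms of 17, with a sum of 7.55, 4.38 and 5.78 in IPA, against 17.1, 10.9 and 8.99 in control. BUB1, a kinase of the spindle checkpoint, had 1 listed isoform of 3, with 2.64, 1.88 and 2.22 in IPA, against 5.58, 3.82 and 4.67 in control. The BUB1 controls lay close together, and the whole gene averaged 11.1 ± 1.13 in IPA and 19.8 ± 1.07 in control, a 1.79-fold higher mean in control.

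The 30 lower members as a group also had a common order of controls. Control 1 was the highest control in 22 of 30, and the controls ran downward from 1 to 2 to 3 in 19 of 30, or 63.3%. Among all 2507 listed transcripts lower in IPA the order was the same in 1561, or 62.3%, so that the lower members had the order of the list as a whole.

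The kinesins were listed in both directions. All 8 are motor proteins of the KIN-14 and KIN-7 families, and in plants members of both families act on microtubules in dividing and non-dividing cells. The gene TRINITY_DN26245_c0_g1, with isoforms named KIN-14Q and KIN-14R, had 2 listed isoforms of 12, which summed to 2.59, 2.35 and 2.59 normalised reads in IPA, against 0.543, 1.24 and 1.19 in control. The gene TRINITY_DN4450_c0_g1, with isoforms named KIN-14O, KIN-14Q and KIN-14U, had 5 listed isoforms of 30, with a sum of 1.78, 2.54 and 2.00 in IPA, against 6.61, 5.63 and 3.75 in control. KIN-7D, whose description adds the word mitochondrial, had 0.172, 0.348 and 0.321 in IPA, against 1.12, 1.21 and 0.778 in control. None of these 3 sums overlapped between groups, where 16.6% of all transcripts had every IPA library above every control and 16.3% below. The whole genes differed less, with 12.6 ± 0.809 in IPA and 7.42 ± 0.646 in control for TRINITY_DN26245_c0_g1. For TRINITY_DN4450_c0_g1 they were 20.7 ± 4.41 in IPA and 36.5 ± 7.54 in control. Of the 8 kinesin transcripts limma called 2 higher and 1 lower and did not call 5, against 4.49% higher and 3.87% lower among all transcripts. Nothing is read from these counts, since the members were picked for the same contrast.

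The rule also took in CDC48 and tetracycline resistance transcripts, 3 in all, that are not cell cycle genes in the narrow sense. CDC48 homolog C, an unfolding ATPase of protein turnover, appeared in 2 Trinity genes with opposite directions. TRINITY_DN26168_c0_g1_i10 had 0.948, 0.778 and 0.568 normalised reads in IPA, against 0.181, 0.318 and 0.183 in control. TRINITY_DN15561_c0_g1_i1 had 0.804, 0.676 and 0.445 in IPA, against 1.48, 0.891 and 1.62 in control. A transcript described as a tetracycline resistance protein matched only because its name contains the letters of cyclin, and it had 1.26, 1.43 and 1.43 in IPA, against 3.41, 2.54 and 2.79 in control.

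The 28 Trinity genes held 235 transcripts, 161 of them unlisted, and 155 of those passed the filter. In all 28 genes the sum over every isoform differed in the direction of the listed isoforms. This is not a separate check, because each sum contains the listed isoforms. In genes such as CDC6, CDC45, MCM2 and MCM6 it contains nothing else. limma on the gene sums called 7 genes higher and 4 lower, where 5.65% and 4.68% of all gene sums were called; 17 were not called, and the called sums are read as a description for the reason given above. The listed isoforms were not all that passed the list's thresholds. Every one of the 5093 listed transcripts carries a description, and edgeR's likelihood-ratio test run here on the recovered reads passed 2466 transcripts that are not listed, at the same FDR and fold change. Among them were 4 of the 155 unlisted isoforms: isoforms i17 and i18 of the tetracycline resistance gene, i20 of the DNA polymerase lambda gene and i9 of the higher CDC48 gene. The share of a gene that was listed is therefore not the share that changed. That listed share was 100% of CDC6, CDC45, MCM2 and MCM6, and in IPA it was 95.0% of the cyclin D gene, 13.3% of the inhibitor 5 gene and 0.612% of the cyclin-D7-1 gene. At the edge of the thresholds, PCNA isoform i4 was just inside with a listed log2 fold change of 1.0, as was DNA polymerase lambda isoform i23 with a listed FDR of 0.05 in the authors' deposited table. Just outside lay isoform i6 of the DNA polymerase lambda gene, with an FDR of 0.0502 by the likelihood-ratio test run here, and isoform TRINITY_DN4450_c0_g1_i11 of a kinesin gene, with a log2 fold change of -1.0 by the same test.

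Other listed genes of the same pathway, found by their descriptions and not members by the rule, were 43 transcripts in 21 Trinity genes. Of these, 18 transcripts in 14 genes were listed as higher and 25 in 7 genes as lower, and 17 of the 25 belonged to a single gene of mismatch repair. limma called 9 of the 43 higher and 20 lower, while among all transcripts it called 4.49% higher and 3.87% lower. Most of the 20 were isoforms of that mismatch repair gene. The wording was chosen with earlier results known, and these genes were on the list for the same contrast.

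The retinoblastoma-related protein and an E2F transcription factor were among them. Values of these other genes are sums over their listed transcripts only, not over the whole Trinity genes. The retinoblastoma-related protein, which restrains E2F, had 51.2, 38.6 and 29.1 normalised reads in IPA, against 13, 21.9 and 24.5 in control. The transcription factor E2FB had 15.0, 10.8 and 8.16 in IPA, against 2.78, 6.46 and 6.45 in control. Each of these genes had 1 listed transcript, and both transcripts were higher in every IPA library than in any control. In both, IPA 1 was the highest and IPA 3 the lowest of the IPA libraries, as in most of the licensing genes. Chromatin assembly factor 1 subunit A, which places histones on new DNA, had 61.6, 54.4 and 22.8 in IPA, against 8.69, 14.4 and 26.2 in control, with IPA 3 below control 3. MYB3R-2, of a family that regulates genes of the passage into mitosis, had 8.90, 7.47 and 6.25 in IPA, against 2.96, 2.13 and 5.92 in control. The small subunit of DNA primase had 1.41, 0.716 and 0.470 in IPA, against 0.302, 0.191 and 0.435 in control.

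Growth-regulating factors, which in Arabidopsis promote cell proliferation in leaves, were listed in both directions. Here too the values of a gene are sums over its listed transcripts only. The 2 Trinity genes described as growth-regulating factor 4 averaged 23.6 ± 2.03 and 21.7 ± 2.04 normalised reads in IPA, against 10.0 ± 2.43 and 7.69 ± 3.16 in control (SD, n = 3 each). The 2 genes described as growth-regulating factor 1 averaged 9.26 ± 0.290 and 10.7 ± 0.317 in IPA, against 19.1 ± 1.8 and 24.2 ± 1.66 in control. A gene described as growth-regulating factor 6 was higher as well, with 4.69 ± 0.859 in IPA, against 2.26 ± 0.826 in control. The groups did not overlap in any of these growth-regulating factor genes. Among all transcripts, 16.6% had every IPA library above every control and 16.3% every IPA library below. Nothing is read from this, since the genes were listed for the same contrast. TPX2, a protein of spindle assembly, had 6.89, 5.04 and 7.14 in IPA, against 11.8, 14.5 and 17.6 in control, and the zw10 homolog, a protein of the kinetochore, had 6.81, 6.14 and 7.69 in IPA, against 21.1, 11.5 and 11 in control. These 2 mitotic genes were lower in IPA, as were the checkpoint members. The mismatch repair gene TRINITY_DN4816_c0_g1 (MSH6 and MutS descriptions, 17 transcripts) had 594, 486 and 210 in IPA, against 1938, 1170 and 921 in control.

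**Figure D4:**
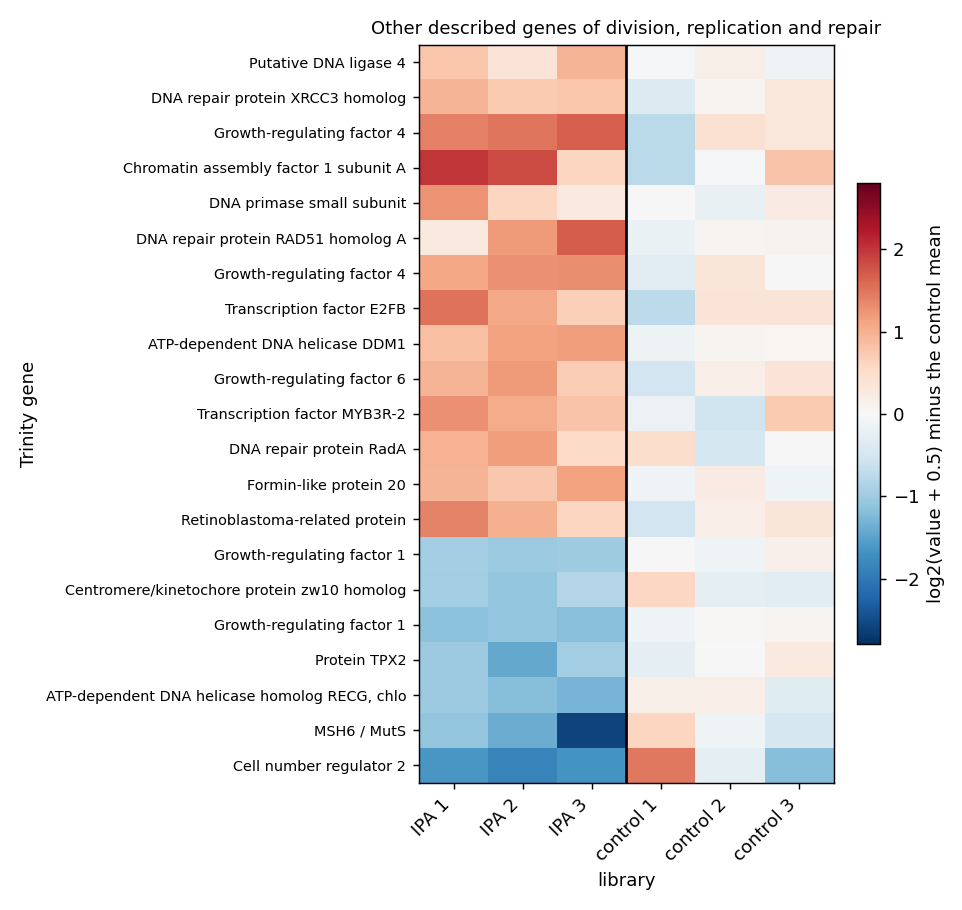
Log2 difference of 21 other pathway genes, each summed over its listed transcripts, from the control mean, in IPA 1 to 3 (left) and control 1 to 3 (right). The retinoblastoma-related protein and E2FB are higher in all IPA libraries than in any control, and the 7 genes at the bottom, from growth-regulating factor 1 to cell number regulator 2, are lower.

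Listed markers of meristems and vascular tissue also differed between the groups. Of 10 listed meristem transcripts, 2 were higher (WUSCHEL-related homeobox 2 and 9) and 8 lower, and their summed level was 31.3 to 38.3 normalised reads in IPA and 44.2 to 100 in control. That sum pools both directions, and homeobox protein knotted-1-like 1 was a large part of it. This gene, of a family active in shoot meristems, had 16.7, 16.2 and 19.1 in IPA, against 71.1, 40.0 and 24.1 in control. In the other direction, WUSCHEL-related homeobox 2 had 7.70, 11.2 and 11.1 in IPA, against 2.57, 4.36 and 4.16 in control. For knotted-1-like 4, listed as lower, the groups overlapped. All 14 listed xylem and phloem transcripts, in 2 Trinity genes, were lower, with a summed level of 2.52 to 3.90 in IPA and 9.68 to 61.7 in control. No listed description matched the root or guard cell wording. The meristem and vascular transcripts were counted only where listed, and their part in the differences of the cell cycle genes was not tested.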

How the data were processed

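Stranded mRNA libraries of 3 IPA and 3 control samples were read as paired ends, per the labels' protocols. The submitters' processing notes name FastQC, Trimmomatic, BWA, featureCounts and edgeR; the sources used here give neither versions and settings nor the assembly steps. The deposited library values are a normalised signal per transcript; dividing them by the worth of 1 read gave whole numbers within 0.01 reads, so reads were recovered. Per the file headers, the authors' list gives for 5093 transcripts a p-value with its FDR, a log2 fold change, a likelihood-ratio score and a mean log2 CPM, and descriptions came from that list alone.

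The filter on low reads was filterByExpr (edgeR 4.0.16). Log2(value + 0.5) was fitted with limma 3.58.1 (trend, robust; R 4.3.3), IPA against control, over 78722 transcripts, with Benjamini-Hochberg adjustment at 0.05. Gene values are sums over the transcripts of a Trinity gene. The fits were checked on simulated data. Alternatives were edgeR's quasi-likelihood and likelihood-ratio tests, DESeq2 1.42.0, other scalings, pseudocounts and filters, a replicate block and leaving out each library; the likelihood-ratio test was added after seeing the data. Cyclin-D1-1, Cyclin-dependent kinase inhibitor 5, up to 4 members per direction and role with a mean of at least 1 and no overlap, and every gene with 2 or more members are named; the rest, given by library because they complete a role, were chosen after their values were seen. Members, gene lists and roles were chosen with earlier results of these data known. The naming rule used the roles fixed earlier, whereas the text groups the members by the later roles. The first wording for ribosomal RNA matched other genes and was replaced by the names of ribosomal DNA frames, and the word formin was limited to whole words. Columns of other samples numbered 0. No sequences or positions were used here.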

Additional observations from a re-analysis of the deposited data

How the results depend on the processing

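No member and no member gene sum changed direction under any alternative run. For single members and genes, 631 of the compared values kept their side of the threshold, 93 lost it and 68 gained it. Against 6587 called transcripts, of them 22 members higher and 7 lower, DESeq2 called 10358 transcripts with 42 and 25 members, and the likelihood-ratio test, added after seeing the data, 11216 with 44 and 29. Scaling by library totals gave 11817 calls with 38 members higher and 5 lower, shifted the median of all transcripts by 0.23 on the log2 scale and raised the share of higher calls to 84.1%, against 53.7%. A mean of at least 1 left 55 members and 3 lower calls. Without single libraries the counts were 1293 to 10421 for all transcripts, 2 to 37 for higher members, 0 to 20 for lower members and 1 to 21 for member gene sums, against 11. With the replicate number as a block the counts were 4377 transcripts, 12 higher members, 5 lower members and 5 gene sums. Same-numbered libraries had correlations of -0.13 to 0.08 in their deviations from the group means, and differently numbered ones -0.09 to 0.13. With so few libraries these values cannot show whether same-numbered libraries shared a batch, and the labels do not say. Other alternatives stayed within 1.5 times. The cause of these shifts was not tested. With reads this few for some members (59 over 6 libraries at the lowest), differences in low isoforms are limited by depth.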
